A study of Mus musculus with 19 samples.

Results

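The genes described here are 42 genes of cell division, followed in the left ventricle of mice after aortic banding, in which a constriction of the vessel loads the ventricle with pressure. They were chosen by name, as genes of the G1 cyclins, replication licensing, S phase, G2 and mitosis, and 41 of the 42 had a probe set that the platform annotation assigns to a single gene, out of 18194 such genes in all. Ccnb1, a mitotic cyclin, was not analysed for this reason. All 19 mice were male C57BL/6, operated at 7 weeks of age, and the ventricle was taken 4 weeks later. The 3 groups were 5 sham-operated mice, 7 banded mice without heart failure and 7 banded mice with heart failure, each mouse giving 1 array. No criterion for heart failure is stated in the sources used here. The lung index in the labels, lung weight over tibia length, ran from 8.2 to 9.38 in sham mice, from 8.52 to 10.83 in banded mice without heart failure and from 17.92 to 24.62 with it. The left ventricular index ran from 4.82 to 5.47, from 6.42 to 7.59 and from 8.09 to 9.75 in the same order. The left ventricular index stands in the labels as an ending ventricular weight, and it equals left ventricular weight over tibia length only if the labelled weights, given as mg, are read as g, so both indices are printed without a unit.

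A cell that divides passes through G1, where D-type and E-type cyclins switch on cyclin-dependent kinases, through licensing of replication origins with the MCM helicase and S phase, where DNA is copied, and then through G2 and mitosis. The mitotic genes are transcribed late, and many carry a CCAAT box and a cell cycle genes homology region (CHR) in their promoters, while E2F sites are typical of replication genes. In the adult heart most cardiomyocytes have left the cycle, whereas fibroblasts, endothelial cells and leukocytes can divide. The arrays measured the whole ventricle, so more cells of a dividing type and more RNA per cell cannot be told apart, and the dividing cell type is not identified by these values.

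Signal is given as the deposited log2 value, and a value of 4 was used as a mark of low signal. On this mark 25 members lay above 4 on all 19 arrays, 10 on some arrays and 6 (Tyms, Plk1, Aurkb, Bub1, Tpx2 and Ect2) on none. Tyms, Plk1 and Bub1 were also nearly constant, with 16, 14 and 13 arrays within 0.01 of their lowest value, and so was Cdca8 with 11 arrays. Aurkb, which this count leaves out, stood at 2.58 in every sham mouse and in every mouse with heart failure but mouse 7 (3.71). A log2 change is the difference of group means from a limma fit over all 19 arrays and all 18194 genes, with its standard error, and a gene passed at a Benjamini-Hochberg adjusted p under 0.05 over all these genes.

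In ventricles with heart failure, 17 of the 41 members were higher than in sham and 0 were lower in the limma fit, with 24 at an unadjusted p under 0.05. The 17 were Ccnd2, Mcm2, Mcm3, Mcm6, Ccna2, Ccnb2, Cdk1, Mki67, Cdc20, Ube2c, Cdca3, Kif11, Kif20a, Nusap1, Tpx2, Racgap1 and Anln. Among all genes tested, 10.8% were called higher and 10.6% lower. The log2 change lay above 0 for 37 of 41 members and for 41.9% of all genes, and its median was 0.40 over the members and 0.00 over all genes. By phase, 13 of 25 measured genes of G2 and mitosis rose (median 0.65), as did 3 of 6 licensing genes (median 0.50) and 1 of 4 G1 cyclins (median 0.03). None of the 4 S phase genes (median 0.13) and neither of the other 2 members passed. Among the 25 members above 4 on all arrays 9 rose, where 17.5% of all genes with such signal did. All 7 failing hearts lie among 13 arrays that share a low signal of the control for 18S ribosomal RNA. With this array set as a block, 5 of the 17 members kept their call and 12, among them Mcm2, Ccna2, Mki67, Kif20a, Racgap1 and Anln, did not. With the block, 3 of the 25 genes of G2 and mitosis were called higher, with a median of 0.54.

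**Figure D1:**
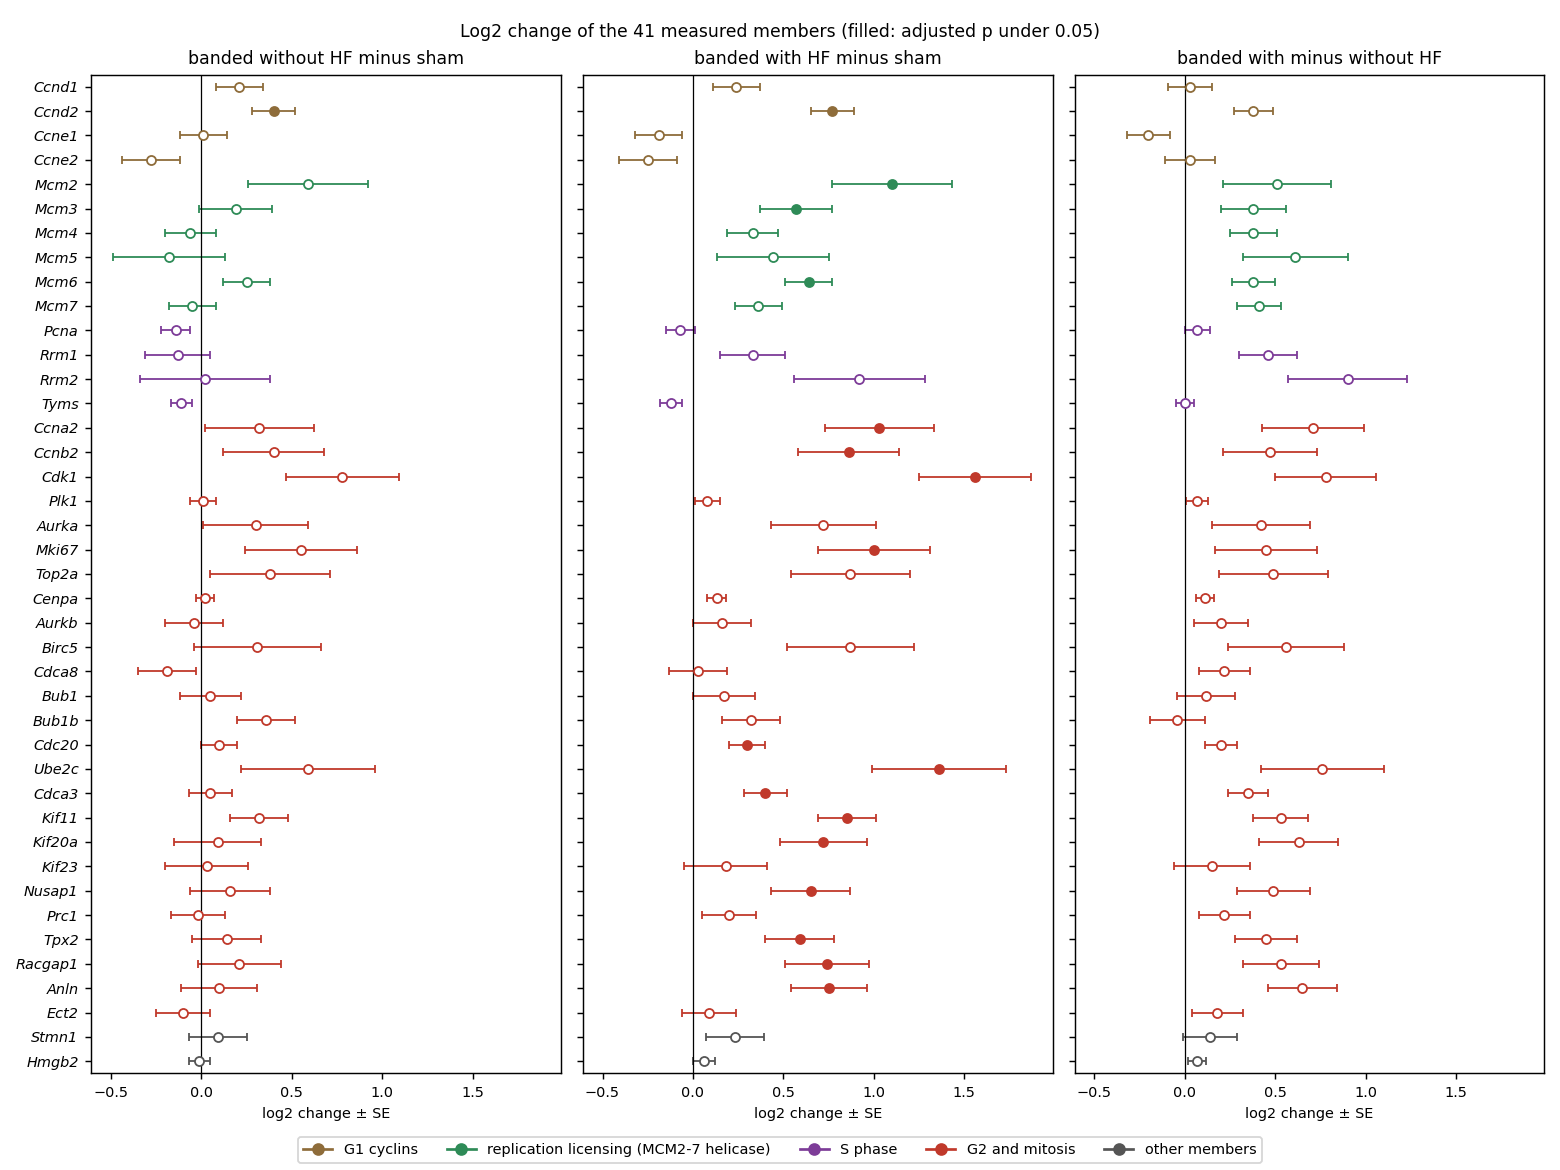
Log2 change with its standard error (horizontal axis) of the 41 measured members (rows, coloured by phase) in the 3 comparisons; filled points have an adjusted p under 0.05. Filled points stand at 17 members in the comparison of heart failure with sham, at Ccnd2 alone in the other comparison with sham, and at 0 members between the banded groups.

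Of the G1 cyclins, which open the cycle by activating Cdk4 and Cdk6 (D-type) and Cdk2 (E-type), Ccnd2 rose in both banded groups. Ccnd2 signal was 11.51, 11.44, 11.44, 11.48 and 11.79 in the 5 sham mice, ran from 11.71 to 12.17 with a median of 11.94 without heart failure, and from 11.85 to 12.5 with a median of 12.34 with it. Every mouse with heart failure was above every sham mouse, and without heart failure only the highest sham mouse reached into the range of the banded mice. The change was 0.40 ± 0.12 (SE, limma adjusted p = 0.042) without heart failure and 0.77 ± 0.12 (limma adjusted p = 0.00012) with it. All 7 probe sets of Ccnd2 were higher with heart failure than in sham when each probe set was tested on its own, and 5 of 7 were higher without heart failure. Ccnd1, the other D-type cyclin among the members, was 10.85, 10.85, 10.58, 10.71 and 10.54 in sham, from 10.43 to 11.12 (median 11) without heart failure and from 10.53 to 11.3 (median 11.03) with it. The groups of Ccnd1 overlapped throughout, and its change with heart failure was 0.24 with a 95% interval from -0.03 to 0.52. The E-type cyclins did not pass: Ccne1 changed by -0.19 ± 0.13 and Ccne2 by -0.25 ± 0.16 with heart failure against sham.

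The MCM2-7 helicase unwinds DNA at replication origins, and its 6 subunits had positive changes with heart failure, from 0.33 (Mcm4) to 1.1 (Mcm2); Mcm2, Mcm3 and Mcm6 passed. Mcm2 signal was 5.63, 5.88, 6.02, 6.31 and 5.96 in sham, from 5.83 to 7.14 (median 6.55) without heart failure and from 5.2 to 7.48 (median 7.36) with it. With heart failure 6 mice lay between 7.27 and 7.48, above every mouse of the other groups, while mouse 5 at 5.2 lay below them all. The change of Mcm2 was 1.1 ± 0.33 (limma adjusted p = 0.0252). Its other probe set, also above 4 on all arrays, changed by 0.18 ± 0.21 (limma adjusted p = 0.655 over all probe sets), and with the mean of both the call was lost (0.64, limma adjusted p = 0.0901). Mcm6 was 8.23, 8.07, 8.37, 8.42 and 8.22 in sham, from 8.28 to 8.88 (median 8.52) without heart failure and from 8.29 to 9.19 (median 8.96) with it. Again 6 mice with heart failure, from 8.87 upward, were above all sham mice, and mouse 5 lay inside the sham range. The change of Mcm6 was 0.64 ± 0.13 (limma adjusted p = 0.00176). Mcm3 changed by 0.57 ± 0.20 (limma adjusted p = 0.0484), and Mcm7 by 0.36 ± 0.13 (limma adjusted p = 0.058). Of the 4 probe sets of Mcm7, 2 others than its brightest one passed when every probe set was tested alone.

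The S phase members showed no call. Pcna, the sliding clamp of the DNA polymerases and a bright gene at 11.17 to 11.7 on all arrays, changed by -0.07 with a 95% interval from -0.24 to 0.10 between heart failure and sham. Rrm1 and Rrm2 encode the subunits of ribonucleotide reductase, which makes the building blocks of DNA. Rrm1 changed by 0.33 ± 0.18 and Rrm2 by 0.92 ± 0.36 (limma adjusted p = 0.0863). Rrm2 was 5.8, 6.09, 5.72, 5.56 and 6.08 in sham and ran from 5.37 to 7.85 (median 7.08) with heart failure. Mice 3 and 5 with heart failure (5.75 and 5.37) lay within or below the sham range, and the other 5 were at 6.99 or more. A second bright probe set of Rrm2 rose by 1.28 ± 0.34 in the same comparison (limma adjusted p = 0.0147 over all probe sets). Tyms, thymidylate synthase, was at the low end of the scale on every array.

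Among the cyclins and kinases that start mitosis, Cdk1, its partners Ccna2 and Ccnb2 rose with heart failure, Aurka did not pass (0.72 ± 0.29, limma adjusted p = 0.0962), and Plk1 was near the floor. Cdk1, the kinase that drives entry into mitosis, had the largest fitted change of the members. Cdk1 signal was 3.95, 3.84, 4.1, 3.25 and 3.85 in sham, from 4.19 to 5.11 (median 4.54) without heart failure and from 3.81 to 6.2 (median 5.53) with it. Every banded mouse without heart failure was above every sham mouse, and 6 of the 7 with heart failure, from 5.38 upward, were above both other groups. The change was 1.56 ± 0.31 (limma adjusted p = 0.00145) with heart failure, and 0.78 ± 0.31 (limma adjusted p = 0.149) without it. Only 1 of 5 sham mice had a Cdk1 signal above 4, so the sham level lay at the low end of the scale. Ccna2, the cyclin of S phase and G2, was 4.53, 4.31, 4.44, 4.28 and 4.58 in sham, from 4.28 to 5.08 (median 4.68) without heart failure and from 3.92 to 6.32 (median 5.61) with it. The 6 mice with heart failure other than mouse 5 were above all sham mice, and the change was 1.03 ± 0.30 (limma adjusted p = 0.0213). The other probe set of Ccna2, above 4 on 11 arrays, changed by 0.71 ± 0.27 (limma adjusted p = 0.089 over all probe sets). Ccnb2, a cyclin B, changed by 0.86 ± 0.28 (limma adjusted p = 0.0362).

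Of the genes of mitotic chromosomes, only Mki67, the gene of the proliferation marker Ki-67, passed among the 6 members. Mki67 was 6.71, 5.79, 6.34, 5.98 and 6.26 in sham, from 6.08 to 7.32 (median 6.87) without heart failure and from 5.89 to 8.05 (median 7.21) with it. In the failing group 6 mice were at 7.06 or more, above all sham mice, and mouse 5 was among the lowest sham values. The change was 1.0 ± 0.31 (limma adjusted p = 0.027) with heart failure and 0.55 ± 0.31 (limma adjusted p = 0.349) without it. Top2a, the topoisomerase that untangles chromosomes, changed by 0.87 ± 0.33 (limma adjusted p = 0.0729), and Birc5, the survivin of the chromosomal passenger complex, by 0.87 ± 0.35 (limma adjusted p = 0.09). Cenpa, the histone of centromeres, changed by 0.13 ± 0.05, and Aurkb and Cdca8, further passenger proteins, by 0.16 ± 0.16 and 0.03 ± 0.16. The brightest probe set of Cdca8 was nearly constant, and its other probe sets, above 4 on only 3 and 2 arrays, changed by 1.03 ± 0.36 and 1.04 ± 0.26 (limma adjusted p = 0.0587 and 0.00975 over all probe sets).

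Among the checkpoint and anaphase genes, 3 of 5 rose with heart failure. Ube2c, the ubiquitin-conjugating enzyme of the anaphase-promoting complex, was 6.1, 5.11, 5.42, 4.25 and 5.62 in sham, from 5.36 to 6.96 (median 5.71) without heart failure and from 5.55 to 7.81 (median 6.8) with it. Its ranges overlapped in all comparisons, since sham mouse 1 reached 6.1 and mice 3 and 5 with heart failure stayed at 6.1 and 5.55. The change was 1.36 ± 0.37 (limma adjusted p = 0.0142). Cdca3, which helps to degrade Wee1 at mitotic entry, was 3.26, 3.26, 3.31, 3.26 and 3.26 in sham, from 3.3 to 3.42 (median 3.31) without heart failure and from 3.31 to 4.11 (median 3.59) with it. Only 2 mice had Cdca3 above 4, both with heart failure, and the change of 0.40 ± 0.12 (limma adjusted p = 0.0212) is one between low signals. Cdc20, the activator of the anaphase-promoting complex, rose by 0.30 ± 0.10 (limma adjusted p = 0.0342), while the checkpoint kinases Bub1 and Bub1b did not pass. Mice 3, 4 and 5 with heart failure had Cdc20 at 6.77, 6.77 and 6.76, within the sham range from 6.57 to 6.78. A second bright probe set of Cdc20 changed by 0.60 ± 0.25 (limma adjusted p = 0.114 over all probe sets).

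The spindle genes gave 4 calls of 6 members, Kif11, Kif20a, Nusap1 and Tpx2, all with 0 sham mice above 4. Kif11, the motor that pushes the spindle poles apart, was 3.69, 3.31, 3.09, 3.54 and 3.28 in sham, from 3.54 to 3.89 (median 3.71) without heart failure and from 3.54 to 4.68 (median 4.33) with it. The 6 mice with heart failure other than mouse 5, from 4 upward, were above all mice of both other groups, and the change was 0.85 ± 0.16 (limma adjusted p = 0.000997). Kif20a, a motor of cytokinesis, was 3.81, 3.1, 3.81, 3.79 and 3.7 in sham, from 3.38 to 4.1 (median 3.81) without heart failure and from 3.81 to 5.23 (median 4.29) with it. Of its 7 values with heart failure 3 lay from 3.81 to 3.83, at the top of the sham range, and the change was 0.72 ± 0.24 (limma adjusted p = 0.0412). Nusap1 changed by 0.65 ± 0.22 and Tpx2, which stayed under 4 on every array, by 0.59 ± 0.19; both bind spindle microtubules. Kif23 and Prc1, of the central spindle, changed by 0.18 ± 0.23 and 0.20 ± 0.15.

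For cytokinesis, Racgap1 and Anln rose and Ect2 did not pass. Racgap1, which acts at the central spindle and the cleavage furrow, was 3.15, 3.48, 2.75, 3.3 and 3.12 in sham, from 2.77 to 3.94 (median 3.38) without heart failure and from 3.48 to 4.64 (median 3.91) with it. The change was 0.74 ± 0.23 (limma adjusted p = 0.0297), with mice 3 and 5 of the failing group at the top of the sham range. Anln, the anillin of the contractile ring, was 5.37, 4.88, 5.36, 5.26 and 5.36 in sham, from 4.89 to 5.65 (median 5.37) without heart failure and from 5.37 to 6.78 (median 5.99) with it. Mice 3 and 5 with heart failure, at 5.37 and 5.44, were again next to the highest sham values, and the change was 0.75 ± 0.21 (limma adjusted p = 0.0179). Stmn1, a microtubule destabiliser that is also made outside mitosis, changed by 0.23 ± 0.16. Hmgb2, a chromatin protein, was 8.53, 8.53, 8.53, 8.54 and 8.52 in sham, from 8.38 to 8.69 (median 8.53) without heart failure and from 8.43 to 8.85 (median 8.53) with it. Its brightest probe set thus hardly varied among sham mice, and its change of 0.06 (95% interval from -0.06 to 0.18) did not pass; a second bright probe set changed by 0.30 ± 0.13 (limma adjusted p = 0.16 over all probe sets).

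**Figure D2:**
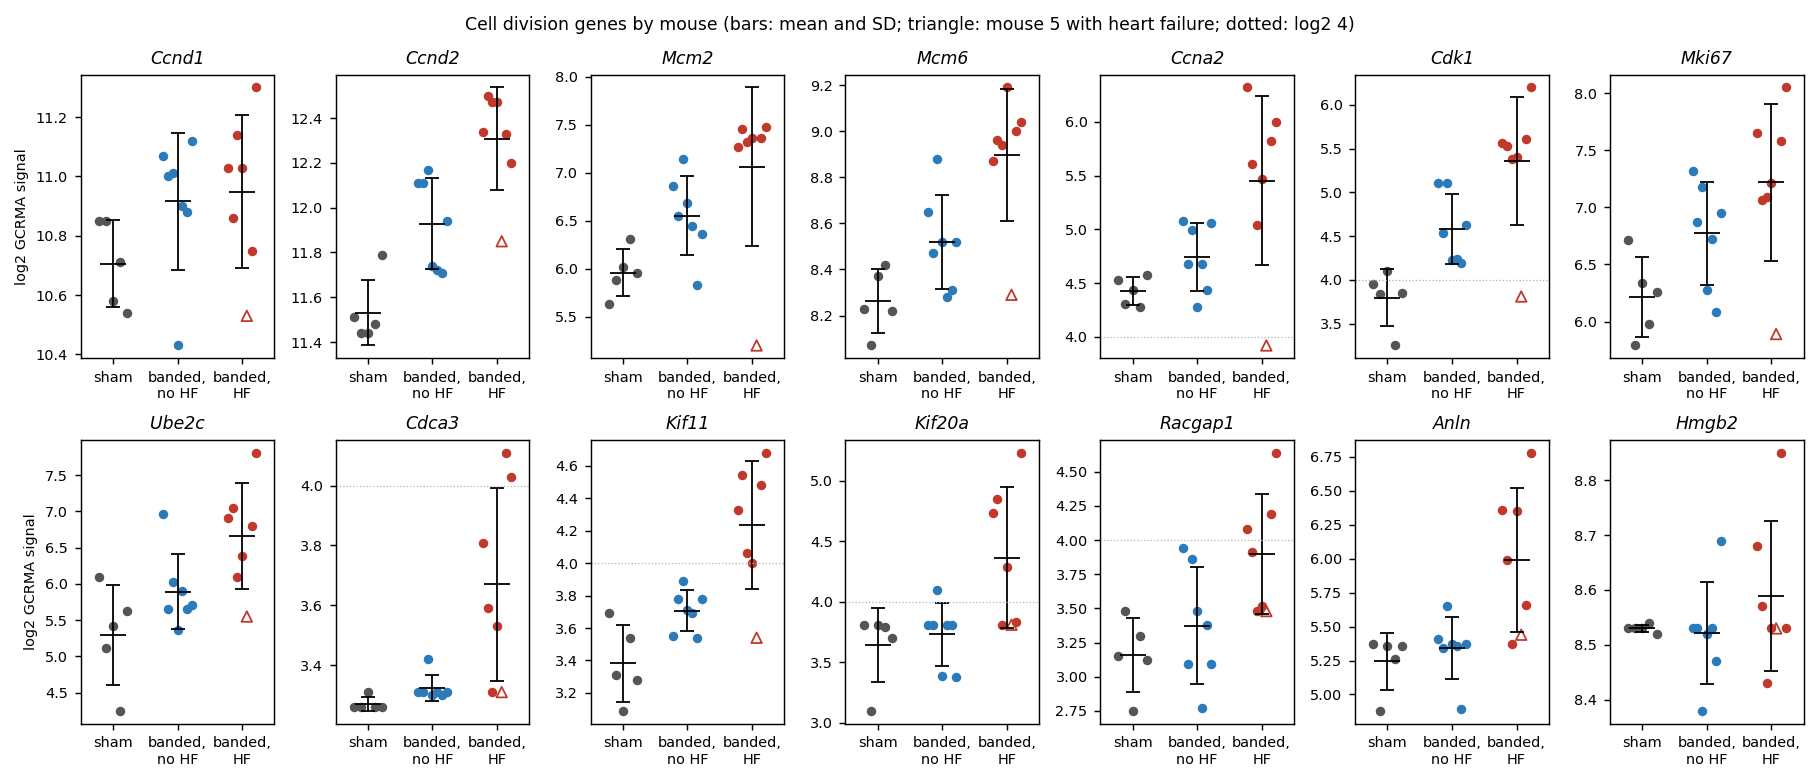
Log2 signal (vertical axis) of 14 members by mouse in the 3 groups (5, 7 and 7 mice), with the mean and SD as bars, mouse 5 with heart failure as an open triangle and a dotted line at log2 4. For Mcm2, Cdk1 and Kif11 the other 6 mice with heart failure lie above all mice of both other groups, and the triangle lies within or below the sham range.

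Of the 17 members that rose, 13 belong to G2 and mitosis, as do 25 of the 41 measured members. The promoters of all members, called or not, were searched on both strands. The letters searched were CCAAT, the CHR (TTTGAA or TTCGAA) and E2F (TTTGGCGC, TTTGCCGC, TTTCGCGC or TTTCCCGC). RefSeq's windows from 250 bases before to 50 after the start site (GRCm38.p6) were used. Of the members, 32 had such a window. The CHR letters were present in 19 of 21 windows of G2 and mitosis genes (90.5%), and in 15.0% of the 14453 windows of all tested genes. CCAAT was present in 18 of the 21 (85.7%) and in 38.2% of all, and both motifs together in 85.7% and 6.13%. E2F letters were present in 1 of the 21, but in 4 of 5 licensing genes (80.0%), where 3.38% of all windows had them. Members without a call carried the letters as well: the windows of Plk1, Aurka, Top2a, Cenpa and Bub1 each held both CCAAT and the CHR. The windows of Nusap1, which rose, and Birc5, which did not pass, held neither. Anln, which rose, had the CHR without CCAAT. Whether the motifs go with the calls was not tested. The sequences below are the windows of the 2 members with the largest change in G2 and mitosis and the 2 in licensing, with all matches in capitals.
Cdk1 promoter, chr10:69352863-69353162, strand -: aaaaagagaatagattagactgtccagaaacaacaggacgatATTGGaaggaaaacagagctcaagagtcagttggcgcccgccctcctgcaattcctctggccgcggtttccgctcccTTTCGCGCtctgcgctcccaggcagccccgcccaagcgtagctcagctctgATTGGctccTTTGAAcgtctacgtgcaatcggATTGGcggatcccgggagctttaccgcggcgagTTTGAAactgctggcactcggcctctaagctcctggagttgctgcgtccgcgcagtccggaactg
Ube2c promoter, chr2:164769679-164769978, strand +: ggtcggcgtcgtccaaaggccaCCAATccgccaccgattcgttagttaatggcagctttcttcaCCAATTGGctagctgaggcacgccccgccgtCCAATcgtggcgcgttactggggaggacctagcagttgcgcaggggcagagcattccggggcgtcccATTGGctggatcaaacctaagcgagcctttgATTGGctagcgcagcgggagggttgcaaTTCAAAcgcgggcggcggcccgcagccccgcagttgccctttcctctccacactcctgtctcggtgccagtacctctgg
Mcm2 promoter, chr6:88898731-88899030, strand -: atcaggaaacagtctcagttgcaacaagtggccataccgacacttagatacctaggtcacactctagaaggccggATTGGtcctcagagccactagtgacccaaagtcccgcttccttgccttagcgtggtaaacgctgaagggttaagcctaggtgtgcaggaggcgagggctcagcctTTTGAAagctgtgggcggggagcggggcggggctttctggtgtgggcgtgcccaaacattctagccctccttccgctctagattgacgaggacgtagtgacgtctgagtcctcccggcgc
Mcm6 promoter, chr1:128359656-128359955, strand -: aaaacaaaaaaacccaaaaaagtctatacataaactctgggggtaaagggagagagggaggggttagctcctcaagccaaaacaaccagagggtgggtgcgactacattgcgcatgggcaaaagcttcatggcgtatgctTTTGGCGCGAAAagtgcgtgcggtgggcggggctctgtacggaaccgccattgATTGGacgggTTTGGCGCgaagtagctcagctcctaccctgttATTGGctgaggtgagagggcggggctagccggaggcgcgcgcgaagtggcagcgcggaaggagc
Cdk1 has 3 CCAAT boxes, all on the other strand (printed ATTGG), 2 CHR matches and 1 E2F match. Ube2c has 6 CCAAT matches, of which the second and the third overlap, and 1 CHR on the other strand (TTCAAA). Mcm2 has 1 CCAAT match and 1 CHR and none of the E2F letters, and Mcm6 has 2 CCAAT matches and 3 E2F matches, of which the first and the second overlap. A match is a description of letters and not a measured binding site.

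In banded mice without heart failure, Ccnd2 alone of the 41 members was higher than in sham and 0 were lower in the limma fit, with 3 members at an unadjusted p under 0.05; 4.89% of all genes were called higher and 3.33% lower. The log2 change lay above 0 for 29 of 41 members and for 45.5% of all genes. The median change of the members was 0.09, of the 25 genes of G2 and mitosis 0.14, and of the 6 licensing genes 0.07. The call of Ccnd2 was lost when sham mouse 1, 2, 3 or 4 or banded mouse 1, 2, 3 or 7 was left out. Cdk1, with 0.78, had the largest change, and it was the 1 member of 41 whose ranges in the 2 groups did not overlap (2.75% of all genes were higher with no overlap). For heart failure against sham, Ccnd2 was the 1 member without overlap, where 5.11% of all genes were higher without it. For Mcm2, Mcm6, Ccna2, Cdk1, Mki67 and Kif11 mouse 5 with heart failure was the only failing heart inside or below the sham range. The same held for Mcm3, Mcm5, Top2a, Nusap1 and Tpx2.

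Between the banded groups, 0 of 41 members passed in either direction in the limma fit, although 19 had an unadjusted p under 0.05; 1.43% of all genes were called higher and 2.61% lower with heart failure. The log2 change was above 0 for 38 of 41 members and for 39.4% of all genes, with a median of 0.38 over the members. Ccnd2 changed by 0.38 ± 0.11 (limma adjusted p = 0.0538), Kif11 by 0.53 ± 0.15 (0.0545) and Mcm7 by 0.41 ± 0.12 (0.0599). For Rrm2 and Cdk1, with changes of 0.90 (95% interval from 0.20 to 1.60) and 0.78 (0.18 to 1.38), the interval lay above 0 but the adjusted p did not pass. The second bright probe set of Rrm2 was higher by 1.27 ± 0.31 in this comparison (limma adjusted p = 0.0443 over all probe sets). The ranges of the banded groups overlapped for all 41 members, while 0.511% of all genes were higher with heart failure and had no overlap. Both comparisons with heart failure share its 7 mice, so their values are not independent.

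Mice of 1 group differed from each other in many members at once. Over the 25 members above 4 on all arrays the median SD was 0.22 in sham, 0.23 without heart failure and 0.34 with it, and over all 10220 genes with such signal 0.19, 0.16 and 0.15. This spread was not tested. Mouse 5 with heart failure was lowest of its group for 24 of the 35 members with an array above 4, by more than 0.1 for 20 of them, and mouse 7 was highest for 19. Mouse 5 was lowest of its group for 28.4% of all bright genes and highest for 22.9%. Its left ventricular index (8.66) and lung index (20.48) lay within the range of its group, and so did the log2 summed signal of the 8 activated fibroblast markers (15.23, in a group range from 14.96 to 15.43). Its 18S control signal of 7.62 was the highest and its actin difference of 0.661 the lowest of the 7, and their part in the result was not tested. Among banded mice without heart failure, mice 1 and 3 were highest for 16 and 13 of the 35 members, and mouse 6 was lowest for 17. Without mouse 5, 23 members were higher with heart failure than in sham, and 12 were higher than without heart failure: Ccnd2, Mcm2, Mcm3, Mcm5, Mcm6, Mcm7, Rrm2, Ccna2, Cdk1, Cdca3, Kif11 and Anln. In these fits 11.1% and 1.71% of all genes were called higher. Mouse 5 is named here for its low values in these same members, so leaving it out tends to raise their counts. The 2 counts are therefore no separate support for the calls. Of the other mice with heart failure left out in turn, only mouse 3 gave a count other than 0 between the banded groups, which was 3.

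**Figure D3:**
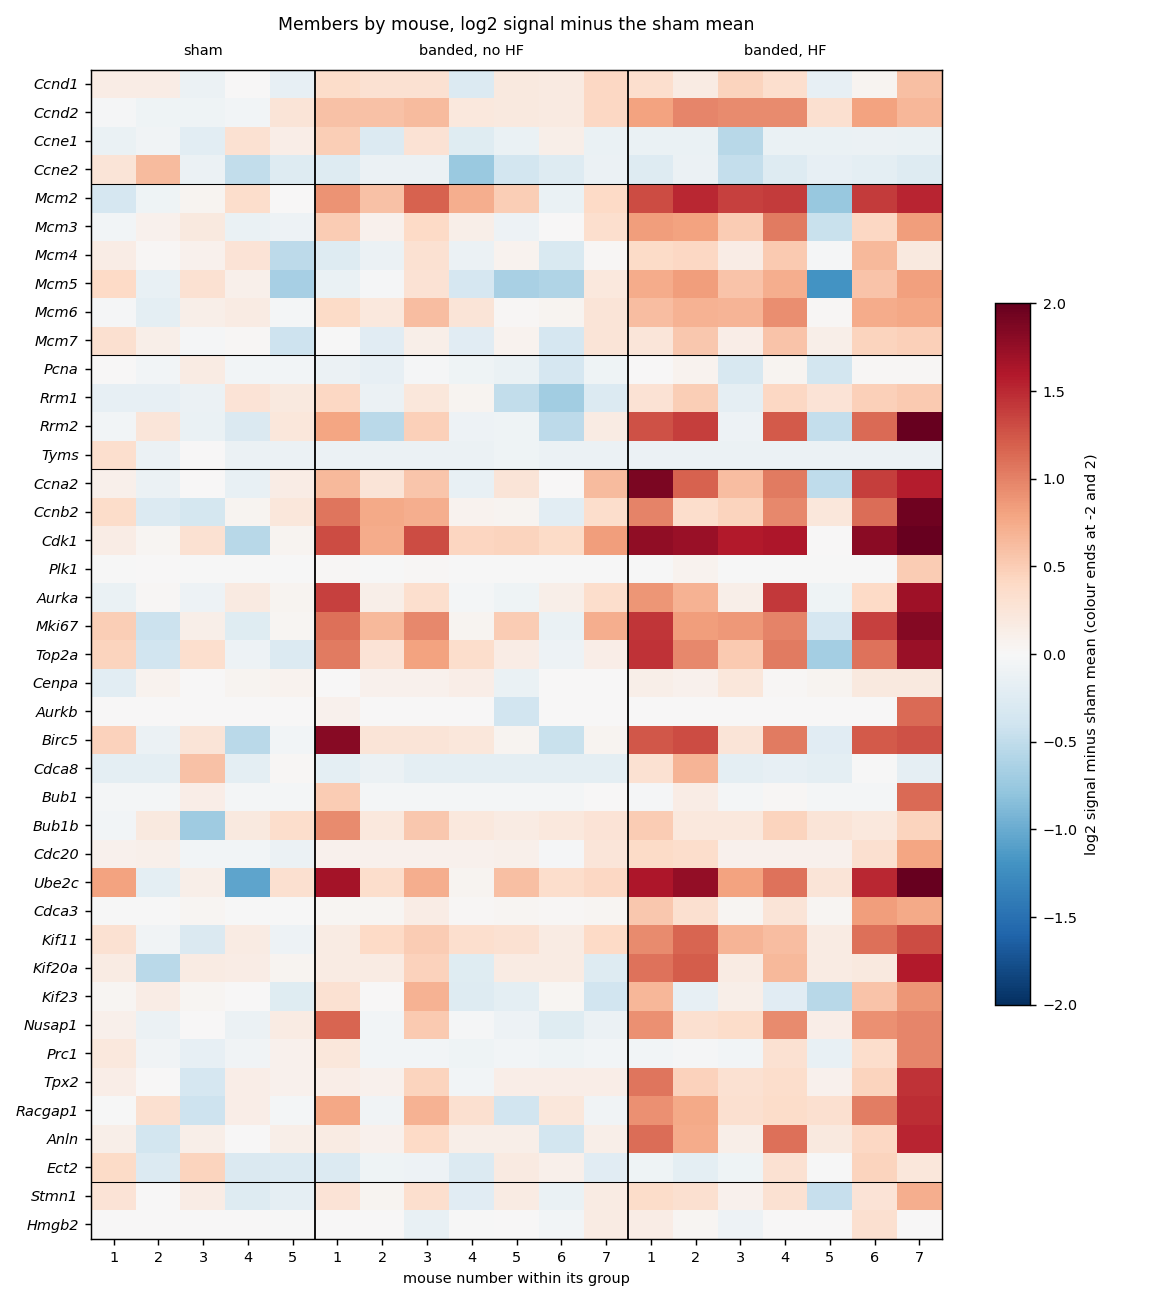
Log2 signal minus the sham mean (colour, from -2 to 2) of the 41 members (rows, in the order of the phases, separated by lines) in each of the 19 mice (columns). Mouse 5 with heart failure stands apart as pale or blue among red columns, and mice 1 and 3 without heart failure are the reddest of their group.

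The arrays differed in control signals that move in part with the groups. The control for 18S ribosomal RNA separated 6 arrays of high signal (sham mice 1 to 3 and banded mice without heart failure 5 to 7) from 13 of low signal, among them all 7 with heart failure. These 6 arrays differed in another control, BioC. Its log2 signal was 8.6, 8.7 and 9.2 in banded mice 5 to 7, and 11, 10.7 and 10.9 in sham mice 1 to 3. No other array was below 10.2. Within the high set, banding and the BioC control thus cannot be told apart, and the 18S block does not adjust for BioC. These banded mice also enter the comparison of the banded groups. The actin difference between the 3' and 5' control probe sets ran from 0.943 to 1.02 in sham, from 0.672 to 0.898 without heart failure and from 0.661 to 0.905 with it. Within the banded mice without heart failure, 20 of the 25 bright members were higher in the low 18S set than in the high one, with a median difference of 0.2; within sham mice 9 of 25 were, with a median of -0.13. In the low set alone, the median change of the members with heart failure against sham was 0.49 (0.61 for G2 and mitosis), beside 0.40 (0.65) over all arrays. With 2 sham mice there, 3 members passed: Ccnd2, Cdk1 and Mcm7, beside 6.41% of all genes. In the same set the median without heart failure against sham was 0.19, where in the high set it was 0.00, with 20 of 41 members above 0. Between the banded groups it was 0.25 in the low set, beside 0.38 over all arrays. With the 18S set as a block, 6 members were higher with heart failure than in sham: Ccnd2, Mcm6, Mcm7, Cdk1, Ube2c and Kif11 (9.38% of all genes). With the actin difference as a covariate there were also 6, Ccnd2, Mcm3, Mcm6, Ccna2, Cdk1 and Kif11, beside 7.2% of all genes; since all banded mice lie below all sham mice in it, that covariate and the banding cannot be told apart.

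**Figure D4:**
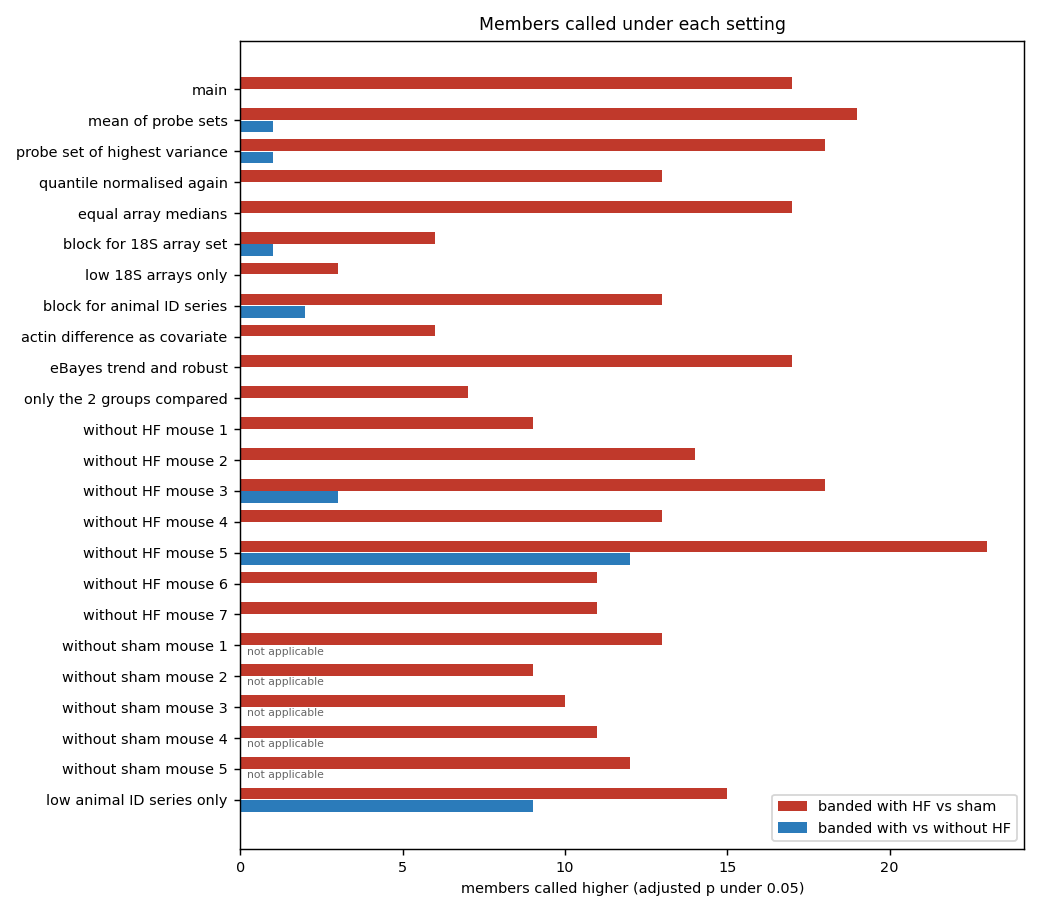
Number of members called higher (horizontal axis) under settings with a fit of heart failure against sham (rows), for that comparison and for heart failure against banded mice without it. The filter on low signal, the test of every probe set and the fits that leave out a banded mouse without heart failure are not drawn. The first count runs from 3 in the low 18S arrays to 23 without mouse 5 with heart failure, and the second reaches 12 without that mouse.

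Ccnd2 and Cdk1 were higher with heart failure than in sham in all 24 alternatives run on single genes, Kif11 and Mcm6 in 23, Ube2c in 22 and Ccna2 in 21. For Kif11, 1 of the 23 is the filter of 4 on at least 5 arrays. Kif11 passed that filter only through arrays with heart failure, so this 1 is no support for its call. Mcm3 and Nusap1 kept their calls in 9 of 24. Of the mice left out in turn, mouse 1, 6 or 7 with heart failure reduced the 17 calls to 9, 11 and 11, and sham mouse 2, 3 or 4 to 9, 10 and 11. The share of all genes called in these fits is not given, so these counts do not show whether the members alone moved.

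Other genes of the cycle, from lists of regulators, replication and mitosis, gave calls in both directions at shares near those of all genes, though more of their changes lay above 0 with heart failure. Of 103 such genes, 13 were higher and 10 lower with heart failure than in sham, where 10.8% and 10.6% of all genes were, and their median change was 0.09. The log2 change lay above 0 for 69 of the 103, beside 41.9% of all genes, and 42 had an unadjusted p under 0.05 in the limma fit. Without heart failure 2 were higher and 5 lower (4.89% and 3.33% of all genes), and between the banded groups 0 were higher and 2 lower (1.43% and 2.61%). Of 37 further genes of G2 and mitosis, 6 rose and 3 fell with heart failure, and 18 had an unadjusted p under 0.05. The change lay above 0 for 31 of these 37 genes, with a median of 0.19. Smc4, of the condensin complex that compacts chromosomes, rose by 1.24 ± 0.21, and Cenpf, a kinetochore protein, changed by -2.22 ± 0.26. Both had passed without heart failure too, with 1.01 ± 0.21 and -1.75 ± 0.26. Cks2, a small subunit that binds Cdk1, changed by 1.70 ± 0.31 with heart failure, and Ccnh, the cyclin of the kinase that activates other cyclin-dependent kinases, by -0.66 ± 0.09. Ccnh (-0.40 ± 0.09) and Cdk2 (-0.43 ± 0.11) were also lower without heart failure. Of 23 genes of origin licensing and the fork, 2 rose and 3 fell with heart failure, with Lig1, a DNA ligase, at 0.87 ± 0.26 and Pola1, the primase-bound polymerase, at -0.65 ± 0.20; Gins1, a helicase partner, changed by -0.50 ± 0.12 without it. Among 19 regulators of the Rb, E2F and DREAM families, 2 rose and 1 fell, with E2f3 at 0.38 ± 0.12 and Lin52 at -0.45 ± 0.15, and among 5 genes of nucleotide supply 1 fell, Rrm2b (-0.26 ± 0.09). Of 7 inhibitors of cyclin-dependent kinases, Cdkn2b rose by 0.52 ± 0.17 with heart failure, and Cdkn1c was lower with than without heart failure (-0.53 ± 0.10), as was Pttg1, the securin (-0.25 ± 0.06). Each of the changes named in this paragraph had a limma adjusted p under 0.05.

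The levels of cell type markers are given beside these results, and their part in them was not tested. With heart failure against sham, 6 of 8 activated fibroblast markers, 8 of 10 fibroblast markers, 3 of 10 endothelial markers and 1 of 16 macrophage and leukocyte markers (Lgals3, 2.33 ± 0.47) rose, and 6 of 10 cardiomyocyte markers fell. Of all genes tested, 10.8% were called higher and 10.6% lower, and 17.5% of genes above 4 on all arrays were called higher. The macrophage and leukocyte count lies below these shares. The log2 summed signal of the activated fibroblast list, led by Thbs4 (4.43 ± 0.38) and Comp (4.00 ± 0.49), ran from 12.82 to 13.47 in sham, from 13.59 to 14.81 without heart failure and from 14.96 to 15.43 with it, with no overlap between groups. Fibroblast markers, led by Mfap5 and Col15a1, ran from 15.55 to 15.9, from 15.66 to 16.11 and from 15.98 to 16.35. Macrophage and leukocyte markers ran from 13.12 to 14.41, from 13.39 to 13.67 and from 13.32 to 13.9, and endothelial markers, led by Tie1 and Pecam1, from 13.31 to 13.47, from 13.49 to 13.8 and from 13.35 to 13.65. Of the 9 measured lymphocyte markers 6 were under 4 on every array and 0 passed in any comparison. Cardiomyocyte markers stayed the brightest list, from 18.63 to 18.86 over all mice, with Tnni3 (-0.27 ± 0.03) and Ryr2 (-0.23 ± 0.07) lowest against sham. Of 6 atrial markers, Nppa rose by 2.18 ± 0.15, the 1 change above 0, Kcnj3 changed by -1.59 ± 0.20, and the median change was -1.58. Other atrial markers varied widely between mice. The mean of Myl7 was 10.27 in sham, 11.52 without heart failure and 6.59 with it (SD 1.95, 1.62 and 4.4), and it passed in no comparison. Of 8 smooth muscle and pericyte markers 2 rose, among them Cspg4, and 2 fell, among them Abcc9. Without heart failure against sham, 5 activated fibroblast markers (Thbs4 and Comp leading), 3 fibroblast markers (Col15a1 and Mfap5 leading), the endothelial Tie1 and Robo4, the pericyte and smooth muscle genes Cspg4 and Notch3, and Nppa rose, and Pln, Kcnj3 and Abcc9 fell. In that comparison 4.89% of all genes were called higher and 3.33% lower. Between the banded groups, 6 activated fibroblast markers (Cthrc1 and Comp leading) and the fibroblast genes Mfap5 and Dcn were higher with heart failure, and 3 cardiomyocyte genes (Ckm and Tnni3 leading), Kcnj3 and Kcnj8 were lower. Here 1.43% of all genes were called higher and 2.61% lower.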

How the data were processed

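Left ventricular RNA of 19 mice was measured on Affymetrix arrays. The authors deposited log2 values, and the submitters' processing notes name GCRMA, without a version. This method corrects background by probe sequence, normalises between arrays and summarises probe sets, which draws dim probe sets to a floor and compresses their changes. The values ran from 2.19 to 16.77, with array medians from 2.85 to 2.99 and 44.5% to 45.0% of probe sets above 4. Arrays have no sequencing depth, so their number limits the precision. No genome build is named for the arrays.

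Of 45101 probe sets, 34958 had 1 symbol in the platform annotation, 932 several and 9211 none listed; 34754 of the first were found by gene ID in the RefSeq table and 0 were renamed. The probe set with the highest mean stood for each of 18194 genes. Nothing was filtered out, so no member was tested because 1 group lifted it. The fit used limma 3.58.1 (R 4.3.3; lmFit with the group alone, then eBayes, two-sided, Benjamini-Hochberg over 18194 genes) and was tested on simulated data. Tables and figures were made with Python 3.11.15, pandas 2.3.3 and matplotlib 3.10.9. The mice are separate animals by their labels; replicate numbers follow the order of deposition.

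The members, lists and alternatives were chosen with earlier results of these data known, so no count here is independent of them. By rule, values per mouse are given for Mki67, Ccnd1, Ccnd2 and Hmgb2, for members that passed without heart failure, and for the 2 members of each phase list with the largest change that passed; Rrm2 was added after its values were seen. For the other cycle lists and the marker lists, the 2 genes with the largest change that passed in each comparison are named, beside genes that complete a small count. Alternatives were a filter above 4 on at least 5 arrays, other choices of probe set, repeated normalisation, blocks or subsets for the 18S array set and the animal numbers in the titles, the actin covariate, a trended robust fit, only 2 groups, and each mouse left out. Testing every probe set, only high 18S arrays, and only the low animal numbers was added after seeing the data.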

Additional observations from a re-analysis of the deposited data

Results flagged for a closer look

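Among the 14 members with values per mouse, 42 groups of values were checked for a mouse far from the rest of its group, and 12 had one; chance gives about 1 in 20 groups, and members share mice, so the checks are not independent.

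Mouse 5 with heart failure was far below its group for Mcm2 (5.2, the next mouse at 7.27), Mcm6 (8.29, next 8.87) and Cdk1 (3.81, next 5.38). Among banded mice without heart failure, mouse 4 was low for Ccnd1 (10.43, next 10.88), mouse 6 low for Anln (4.89, next 5.34), mouse 1 high for Ube2c (6.96, next 6.03) and mouse 3 high for Cdca3 (3.42, next 3.31). Among sham mice, mouse 5 was high for Ccnd2 (11.79, next 11.51), mouse 2 low for Kif20a (3.1, next 3.7) and for Anln (4.88, next 5.26). Sham mouse 3 was high for Cdca3 (3.31, next 3.26) and sham mouse 4 for Hmgb2 (8.54, next 8.53), where the whole group differed by a few hundredths.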

How the results depend on the processing

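The number of members higher with heart failure than in sham, 17, was 6 with the 18S block, 3 in the low 18S arrays, 6 with the actin covariate and 7 with only those 2 groups in the fit, and ran from 9 to 23 with a mouse left out. For G2 and mitosis the count of 13 became 3, 1, 3 and 5 in those 4 settings. The median change of these genes, 0.65, became 0.36 with the mean of probe sets. Under equal array medians 1 member, Tyms, was lower than sham in each banded group. The 1 member higher without heart failure, Ccnd2, became 0 in the low 18S arrays, in the high 18S arrays, in the low animal numbers, with the actin covariate and with only those 2 groups, and ran from 0 to 1 with a mouse left out. Between the banded groups the 0 members higher became 5 with the filter of 4 on at least 5 arrays (which Kif11, 1 of the 5, passed only through arrays with heart failure), 1 with the mean of probe sets, with the probe set of highest variance, with the 18S block and with every probe set tested, 2 with the block for animal numbers and 9 in the low animal numbers. With a mouse left out they ran from 0 to 12; the values other than 0 were 12 and 3 without mice 5 and 3 with heart failure, and 3, 2 and 1 without mice 1, 3 and 7 of the other banded group. No called change turned its direction in any alternative. These counts stand here without the share of all genes called higher in the same fit. In the main fit that share was 10.8% for heart failure against sham, 4.89% without heart failure against sham and 1.43% between the banded groups. For the alternatives it is given above only in part. Where it is missing, a count does not show whether the members moved apart from all genes. The low animal numbers hold the same sham mice and banded mice without heart failure as the high 18S arrays, plus mice 1 and 2 with heart failure, so these settings are not independent. Those 2 mice have low 18S signal. In the low animal numbers heart failure and the 18S set thus cannot be told apart, and the failing group holds only 2 mice. Signals under 4 are compressed toward the floor, which limits what can be said of Plk1, Bub1, Aurkb, Tyms, Ect2 and Tpx2. No paired analysis was possible because the labels give the mice no replicate numbers shared between groups.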
